A study of Mus musculus with 6 samples.

Results

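Peroxisomes are single-membrane organelles in which liver cells shorten very long, branched and dicarboxylic fatty acids, break down phytanic acid, mature bile acid precursors, begin the synthesis of ether lipids and handle the hydrogen peroxide that their oxidases release. They are built and supplied by the peroxins, the products of the Pex genes, some of which place proteins in the peroxisomal membrane, carry enzymes into the interior (the matrix), return the carriers to the cytosol or elongate and divide the organelle. In rodent liver many peroxisomal fatty acid oxidation genes are known targets of the nuclear receptor PPAR alpha, a sensor of fatty acids that is active in fasting.

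The genes described here are the peroxins, taken as every gene whose symbol is Pex followed by a digit, and 25 listed peroxisomal enzymes, transporters and membrane proteins, called the enzymes below. Of these, 16 peroxins and 24 enzymes had a row in the table of expression values, 40 genes of 10940 in all. The listed gene without a row was Far1. For each gene the transcript of highest mean level was kept, and the 40 genes had 58 transcripts among the 14659 of the table.

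The mice were males of the inbred strain C57BL/6J, aged 8 weeks, and messenger RNA of their livers was sequenced in 6 libraries. The refed mice (libraries 5, 7 and 8) were fasted for 12 h from 10 am and then given a high-sucrose diet (69% sucrose, 10% fat) for 12 h from 10 pm. The fasted mice (libraries 1, 3 and 4) had no food for 12 h from 10 pm. Both groups were sampled at 10 am, so the refed mice had also been fasted earlier, and at another time of day. Whether the libraries come from different animals is not stated outright in the labels, and p-values therefore reflect only the spread between libraries, some of which may be technical.

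Levels are given as RPKM, reads scaled by transcript length and library size, as computed by the authors, and library values are listed in the order 5, 7 and 8 for refed and 1, 3 and 4 for fasted. Reads in the genes that the authors called changed came to between 26237934 and 33219013 per library. These sums cover only part of each library, so the full depth is unknown. The 7 hepatocyte markers checked all had rows, and their summed level was 45634 to 48626 RPKM in refed and 47933 to 55589 RPKM in fasted libraries. The 5 lymphocyte and 3 adipocyte markers checked had no row, and the summed levels of Kupffer cell, sinusoidal endothelial, stellate, cholangiocyte and erythroid markers overlapped between the groups. Taken singly, 3 of 7 hepatocyte and 3 of 5 cholangiocyte markers passed the test described below in either direction, as did 42.2% of all genes tested. No marker of the other types passed, and the part of cell makeup in the results was not tested. In whole liver, fewer cells of a type and less RNA per cell cannot be told apart.

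Matrix enzymes are recognised by short signals in their sequence, and the coding sequences of all 40 genes were searched for them. The more common signal is the last 3 residues of the protein, with serine-lysine-leucine as its prototype, and it is bound by the receptor Pex5. With serine, alanine or cysteine, then lysine, arginine or histidine, then leucine or methionine as the pattern, 10 of 24 enzymes and 0 of 16 peroxins ended in it, against 0.502% of 21501 protein-coding genes. When proline was also allowed in the first place, glutamine or asparagine in the middle and isoleucine at the end, the numbers were 16 enzymes, 0 peroxins and 1.28% of genes. The last 8 codons of 9 enzymes are shown, because among the enzymes with this ending some fell after refeeding, some rose and some did not pass the test. Capitals mark the bases of the last 3 residues, before the stop codon. Positions are on GRCm38 and exons are numbered along the transcript, both from GENCODE M21.
Ehhadh, lower in refed, exon 7, chr16:21762084-21762107, minus strand: ggaccccatagcAGCAAACTGtga
Decr2, lower in refed, exon 8, chr17:26082876-26082899, minus strand: gaatccttctctGCTAAGCTGtag
Crot, lower in refed, exon 18, chr5:8966852-8966875, minus strand: ctgatgaacaccGCTCATCTTtag
Eci2, lower in refed, exon 10, chr13:34977911-34977934, minus strand: gtctccagaaaaCCAAAGCTGtga
Nudt7, higher in refed, exon 4, chr8:114151993-114152016, plus strand: agatattctttaAGCAAGTTGtga
Nudt19, higher in refed, exon 3, chr7:35547909-35547932, minus strand: aagagatgtactGCCCACCTGtaa
Hao1, higher in refed, exon 8, chr2:134498257-134498280, minus strand: cctttggctgttTCCAAGATCtga
Scp2, did not pass, exon 16, chr4:108044750-108044773, minus strand: cagccgggcaaaGCTAAGCTGtga
Pecr, did not pass, exon 8, chr1:72259348-72259371, minus strand: tttaagaagaaaGCCAAGCTCtaa

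The other signal lies near the start of the protein and is bound by the receptor Pex7. Its pattern is arginine or lysine, then leucine, valine, isoleucine or glutamine, and, after a gap, histidine or glutamine followed by leucine, alanine or phenylalanine, with looser requirements at 2 residues within the gap. It was found in the first 80 codons of 4 enzymes, against 0.307% of all genes, and those 4 stretches are shown because they carry the only import signal found in these enzymes. Capitals mark the first 2 and last 2 codons of the stretch of 9 codons.
Acaa1a, lower in refed, exon 1, chr9:119341521-119341547, plus strand: CGGCTGcaggtagtgctgggcCACCTG
Acaa1b, lower in refed, exon 1, chr9:119156962-119156988, minus strand: CGGCTGcaggtagtgctgggtCACCTG
Phyh, lower in refed, exon 1, chr2:4919094-4919120, plus strand: CGGCTGcaggtccttctgggaCACCTC
Agps, did not pass, exon 1, chr2:75832360-75832386, plus strand: CGGCTGcgggttctgtcgggcCATCTG

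One peroxin, Pex11g, also matched these letters, which is a match of the pattern and not a known signal. In all, 20 enzymes held one of the signals, and the 4 that held neither, Abcd2, Abcd3, Pxmp2 and Pxmp4, are proteins of the peroxisomal membrane.

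Refeeding was compared with fasting by limma across 10883 genes on log2(RPKM + 1), and a gene is said to have risen or fallen where its adjusted p (Benjamini-Hochberg over all genes tested) was under 0.05. All 40 peroxisomal genes passed the filter on low values. Of the 24 enzymes, 14 fell and 3 rose, and 7 did not pass the test. Of the 16 peroxins, 5 fell and 2 rose, and 9 did not pass. Over all genes tested, 15.8% fell and 26.4% rose, 42.2% in either direction. The share that fell was thus 58.3% of enzymes and 31.2% of peroxins. No test of the difference between these shares was made. On the log2 scale 6 enzymes and 1 peroxin fell by at least 1, as did 2.85% of all genes, and 1 enzyme rose by at least 1, as did 3.79% of all genes. Both the 14 enzymes that fell and these 6 include Abcd2, which had a row only through its fasted libraries. The median log2 fold change of refed over fasted was -0.42 for enzymes, -0.05 for peroxins and 0.10 for all genes. All refed libraries lay below all fasted libraries for 15 enzymes and 6 peroxins, as for 20.6% of all genes, and above them for 3 enzymes and 3 peroxins, as for 34.8% of all genes.

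**Figure D1:**
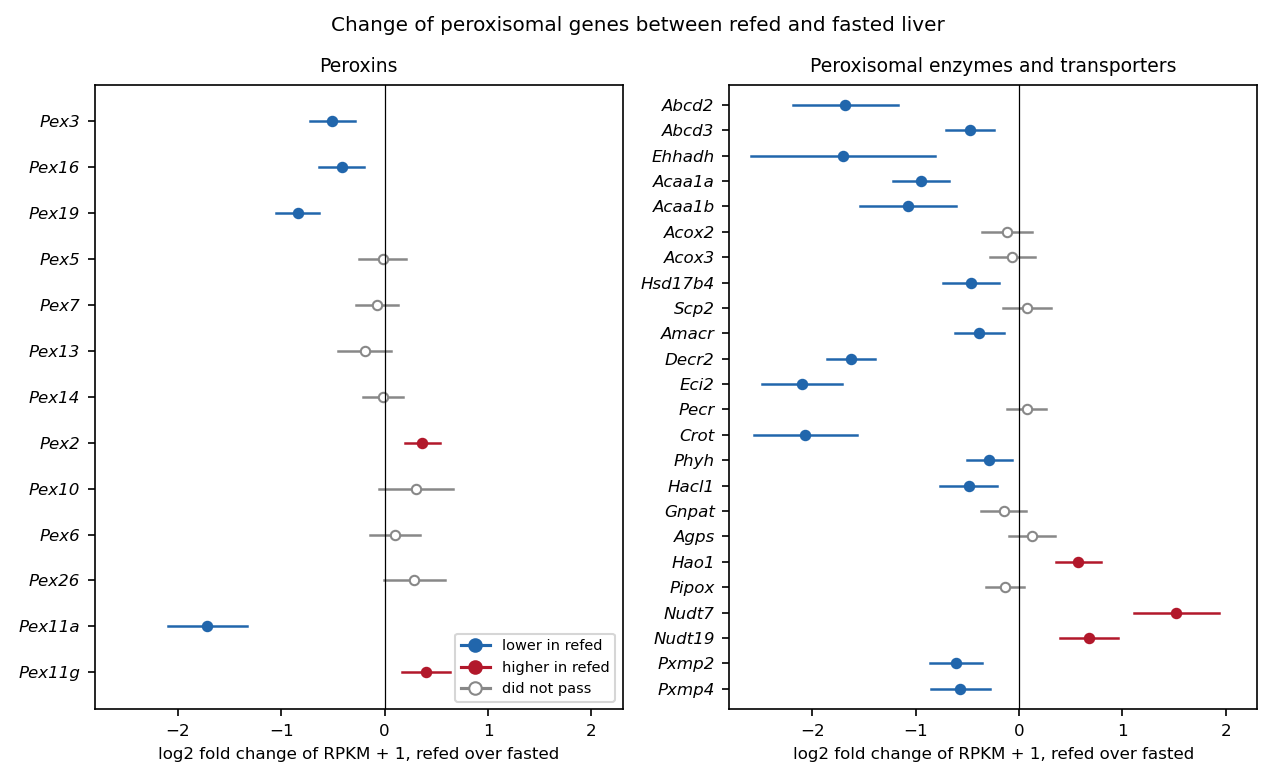
Log2 fold change of RPKM + 1, refed over fasted, for peroxins (left) and peroxisomal enzymes, transporters and membrane proteins (right), ordered by role, with 95% confidence intervals from limma over 3 refed and 3 fasted libraries. Filled blue points fell, filled red points rose and open grey points did not pass; among peroxins Pex11a stands farthest from 0 at -1.71, and among enzymes Eci2 lies lowest at -2.10 and Nudt7 highest at 1.52.

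The organelle is made competent for matrix import by proteins that must first be put into its membrane. Pex19, the cytosolic chaperone that carries membrane proteins to the peroxisome, was at 25.5, 24.3 and 23.2 RPKM in refed and 47.2, 40.1 and 46.0 RPKM in fasted libraries. The refed libraries agreed closely, and the groups did not overlap. The log2 fold change was -0.84 ± 0.09 (SE, limma adjusted p = 0.00032). Pex3, the membrane anchor on which Pex19 docks, had 13.6, 12.4 and 12.0 RPKM in refed against 17.9, 16.8 and 20.4 RPKM in fasted livers. Each refed value was below each fasted one, and the log2 fold change was -0.50 ± 0.10 (limma adjusted p = 0.0045). Pex16, a membrane protein that takes part in the same insertion step, was the peroxin with the highest mean level. It had 55.8, 58.8 and 51.7 RPKM in refed and 76.7, 67.3 and 78.8 RPKM in fasted livers, again without overlap, and its log2 fold change was -0.41 ± 0.09 (limma adjusted p = 0.0094). These values are of a transcript annotated as non-coding. The coding transcript of Pex16 averaged 59.2 RPKM over the 6 libraries, with a ratio of refed to fasted mean of 0.76 against 0.75. All 3 genes of the membrane insertion step therefore fell, against 31.2% of the 16 peroxins and 15.8% of all genes tested. Their summed level averaged 92.5 ± 4.79 RPKM in refed and 137 ± 11.3 RPKM in fasted livers (SD, n = 3 each). The 4 membrane proteins among the enzymes fell as well, by log2 fold changes between -1.68 and -0.47, against 58.3% of the 24 enzymes. No test of these counts was made.

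The receptors and the docking complex of matrix import did not pass the test. Pex5, the receptor for the signal at the end of the protein, was at 45.9, 40.9 and 44.0 RPKM in refed and 39.8, 43.6 and 49.4 RPKM in fasted livers. Its groups overlapped, and the log2 fold change was -0.02 with a 95% interval from -0.25 to 0.21. Pex7, the receptor for the signal near the start, averaged 26.1 ± 0.883 RPKM in refed and 27.6 ± 2.32 RPKM in fasted livers, a log2 fold change of -0.07 with an interval from -0.27 to 0.13. Pex14, to which loaded receptors dock at the membrane, had 43.8, 48.5 and 41.7 RPKM in refed and 44.5, 43.9 and 46.6 RPKM in fasted livers. Here too the libraries were intermixed, and the interval of the log2 fold change ran from -0.21 to 0.18. Pex13, the partner of Pex14 in docking, averaged 10.7 ± 1.10 RPKM in refed and 12.4 ± 1.41 RPKM in fasted livers (log2 fold change -0.19, interval -0.45 to 0.07). In the fit as reported, the 95% intervals of these 4 genes reached about 0.45 in size on the log2 scale, which is not a limit on the change. Scaling moved Pex13 to -0.28 with median centring (limma adjusted p = 0.066) and -0.29 with TMM factors (0.053), still without passing.

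Pex2 and Pex10 are subunits of the RING-type ubiquitin ligase that marks used receptors for return to the cytosol. Pex2 had 19.0, 17.8 and 18.03 RPKM in refed and 13.8, 14.1 and 14.0 RPKM in fasted livers. Both groups were tight and well apart, and Pex2 rose by a log2 fold change of 0.36 ± 0.07 (limma adjusted p = 0.0056). Pex10 was lower in level and did not pass the test, with a log2 fold change of 0.30 ± 0.15. Leaving out refed library 8 brought it past the threshold (limma adjusted p = 0.04).

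Pex6, an ATPase that helps to pull the receptors out of the membrane, and Pex26, which anchors the export complex there, did not pass either. Pex6 had 38.2, 37.5 and 41.2 RPKM in refed and 32.2, 35.4 and 41.6 RPKM in fasted livers, with overlapping groups. Pex26 averaged 10.1 ± 1.89 RPKM in refed and 8.00 ± 0.385 RPKM in fasted livers, a log2 fold change of 0.29 ± 0.13, and passed without refed library 8 (limma adjusted p = 0.024).

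Pex11a and Pex11g encode membrane proteins that elongate peroxisomes and take part in their division, and they moved in different directions. Pex11a, the form known to be inducible by PPAR alpha ligands in rodent liver, had 22.3, 19.7 and 26.9 RPKM in refed and 61.0, 82.5 and 90.2 RPKM in fasted livers. The highest refed value was less than the lowest fasted value by a wide margin, with a fasted mean 3.40 times the refed mean. The log2 fold change was -1.71 ± 0.16 (limma adjusted p = 0.00019), the largest fall among the peroxins. Pex11g, the gamma form, ran the other way, with 39.0, 36.0 and 34.2 RPKM in refed and 31.0, 25.9 and 25.4 RPKM in fasted livers. All refed values were above all fasted ones, and the log2 fold change was 0.40 ± 0.10 (limma adjusted p = 0.015). That call did not hold when libraries were centred on their medians (log2 fold change 0.31, limma adjusted p = 0.054), under quantile normalization (0.066) or TMM factors (0.074), or without refed library 5 (0.061) or fasted library 3 (0.053).

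In each refed library Pex11a was below Pex11g, and in each fasted library it was above. The ratio of Pex11a to Pex11g was 0.571, 0.546 and 0.786 in refed libraries and 1.97, 3.18 and 3.55 in fasted libraries. Pex11a alone made up 6.17% ± 1.07 of the summed peroxin level in refed and 16.8% ± 2.62 in fasted livers (SD, n = 3 each). Summed over the 16 peroxins, the level was 380, 371 and 366 RPKM in refed and 442, 449 and 493 RPKM in fasted libraries. Without Pex11a it was 357, 352 and 339 RPKM in refed and 381, 366 and 403 RPKM in fasted libraries, still apart but closer.

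**Figure D2:**
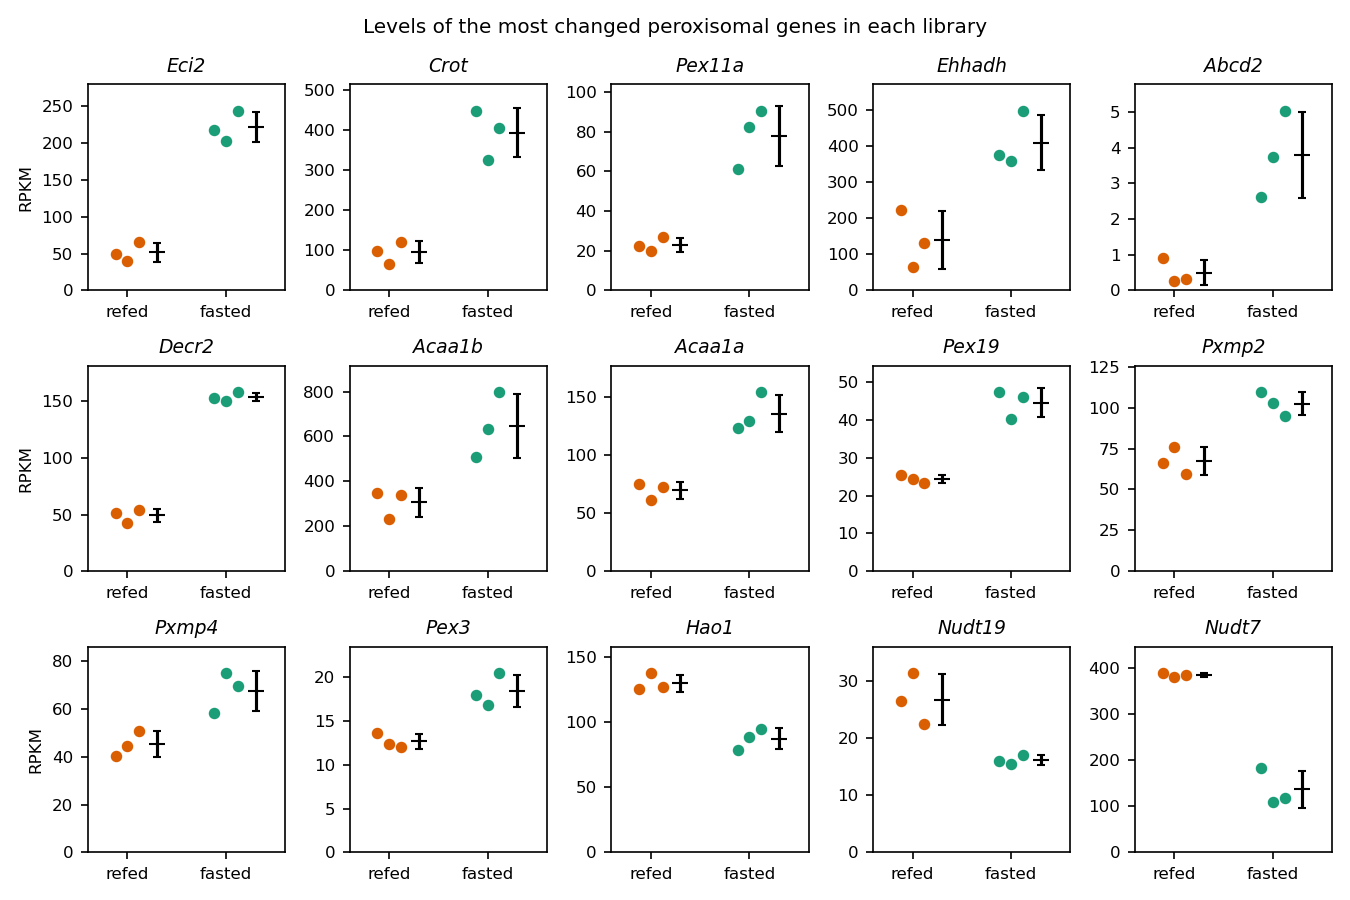
RPKM in each library for the 15 peroxisomal genes that passed the test with a log2 fold change of at least 0.5 in size, with a linear axis from 0 for each gene; orange points are refed libraries 5, 7 and 8, green points fasted libraries 1, 3 and 4, and bars the mean ± SD. Of the 15 genes, 12 are lower in refed livers and Hao1, Nudt19 and Nudt7 are higher. The groups do not overlap for any of them, which choosing the genes by the test favours. Over all genes tested, the groups did not overlap for 55.4%.

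Among the enzymes, fatty acids enter the peroxisome as acyl-CoA through ABC transporters. Abcd3, the abundant transporter of branched and dicarboxylic acyl-CoA and of bile acid precursors, had 167, 155 and 136 RPKM in refed and 199.8, 219.8 and 215 RPKM in fasted livers. Every refed value was below every fasted one, and the log2 fold change was -0.47 ± 0.10 (limma adjusted p = 0.0069). Abcd2, a transporter of very long-chain and polyunsaturated acyl-CoA that is low in liver, had 0.896, 0.261 and 0.316 RPKM in refed and 2.62, 3.73 and 5.02 RPKM in fasted livers. The fasted mean was 7.72 times the refed mean. A transcript needed at least 1 RPKM in some library to have a row. Abcd2 met this only in its fasted libraries, so its presence here depended on that group being high. The separation of its groups is therefore given as a description only. On the log2(RPKM + 1) scale, where low genes change less than in RPKM, the log2 fold change was -1.68 ± 0.22 (limma adjusted p = 0.00081), and with a pseudocount of 0.1 it was -2.83. In the authors' deposited table Abcd2 had 287, 93 and 93 reads in refed libraries 5, 7 and 8 and 848, 1182 and 1499 reads in fasted libraries 1, 3 and 4.

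All 3 listed genes of the straight-chain and dicarboxylic branch of beta-oxidation fell, against 15.8% of all genes tested. Ehhadh, the bifunctional enzyme that hydrates and dehydrogenates these acyl-CoA, had 223, 64.9 and 130.5 RPKM in refed and 373, 357 and 495 RPKM in fasted livers. The refed libraries were widely spread, with a coefficient of variation of 57.0% against 18.5% in fasted livers, but stayed below the fasted ones. The log2 fold change was -1.70 ± 0.38 (limma adjusted p = 0.0094), and -1.24 without refed library 7, the lowest of the 6. Acaa1b, a thiolase of the last step of the cycle, had 347, 234 and 339 RPKM in refed and 509.6, 635 and 796 RPKM in fasted livers. Acaa1a, the other thiolase, had 75.3, 61.6 and 73.0 RPKM in refed and 124, 129.7 and 154 RPKM in fasted livers. Neither gene's groups overlapped, and the log2 fold changes were -1.07 ± 0.20 for Acaa1b (limma adjusted p = 0.0041) and -0.95 ± 0.12 for Acaa1a (limma adjusted p = 0.00062). The coding sequences of the thiolases are identical at 96.5% of 1275 positions, so reads may be split between them and the level of each is uncertain. Their ratio, Acaa1b to Acaa1a, was 3.80 to 4.64 in refed and 4.12 to 5.16 in fasted libraries.

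The branch that handles branched chains and bile acid precursors moved less, and 2 of its 5 genes fell (40%, against 15.8% of all genes tested). Hsd17b4, the second bifunctional enzyme, used in this branch, had 204, 178 and 226 RPKM in refed and 249, 296 and 294 RPKM in fasted livers, without overlap. It fell by 0.46 ± 0.12 on the log2 scale (limma adjusted p = 0.015; 0.055 without fasted library 3). Amacr, the racemase that prepares branched acyl-CoA for oxidation, fell by 0.38 ± 0.10 (limma adjusted p = 0.019; 0.058 without refed library 7 and 0.053 without fasted library 1). Scp2, whose longer product is the thiolase of this branch, had 1021, 958 and 1128 RPKM in refed and 945, 972 and 1016 RPKM in fasted livers. Its groups were intermixed, and the log2 fold change was 0.08 with an interval from -0.15 to 0.31. Scp2 had 1 transcript in the data, so its level does not tell the longer product from a shorter one. The branched-chain oxidases Acox2 and Acox3 averaged 91.3 ± 7.32 and 8.37 ± 0.565 RPKM in refed livers, and 99.5 ± 10.3 and 8.80 ± 0.785 RPKM in fasted livers. Neither passed the test, with log2 fold changes of -0.12 ± 0.11 for Acox2 and -0.06 ± 0.09 for Acox3.

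The bifunctional enzymes of the branches can be set side by side within each library. The ratio of Ehhadh to Hsd17b4 was 1.09, 0.364 and 0.578 in refed libraries and 1.502, 1.21 and 1.68 in fasted libraries. Ehhadh exceeded Hsd17b4 in each fasted library and in refed library 5, and was below it in refed libraries 7 and 8. For the transporters, the ratio of Abcd2 to Abcd3 averaged 0.00313 ± 0.00197 in refed and 0.0178 ± 0.00516 in fasted livers.

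Enzymes that feed or clear the cycle included the largest falls. Eci2, an isomerase that moves double bonds of unsaturated acyl-CoA, had 49.5, 40.2 and 65.2 RPKM in refed and 218, 202 and 243 RPKM in fasted livers. The highest refed value was well under the lowest fasted one, and the log2 fold change was -2.10 ± 0.17 (limma adjusted p = 8.1e-05), the largest fall among the 40 genes. Its 3 transcripts in the table gave ratios of refed to fasted mean between 0.232 and 0.234. Decr2, the reductase that acts on polyunsaturated acyl-CoA, had 51.2, 42.8 and 54.0 RPKM in refed and 153, 150.4 and 158 RPKM in fasted livers. Its fasted libraries varied by only 2.42% of their mean, and the log2 fold change was -1.63 ± 0.10 (limma adjusted p = 3e-05). Pecr, the trans-2-enoyl-CoA reductase of the chain elongation direction, did not pass the test, at 114 ± 4.74 RPKM in refed and 108 ± 5.33 RPKM in fasted livers. Crot, which turns medium-chain acyl-CoA into carnitine esters that leave the organelle, had 99.7, 65.9 and 119.9 RPKM in refed and 447, 327 and 407 RPKM in fasted livers. Again the groups were far apart, and the log2 fold change was -2.07 ± 0.22 (limma adjusted p = 0.00028).

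Phytanic acid, a branched fatty acid of the diet, is first shortened by alpha-oxidation. Phyh, its hydroxylase, was the most abundant of the 40 genes, with 1123, 1209 and 1245 RPKM in refed and 1469.7, 1466 and 1425 RPKM in fasted livers. The groups did not overlap, and the log2 fold change was -0.29 ± 0.09 (limma adjusted p = 0.04). That call was lost when any one of the 6 libraries was left out (limma adjusted p between 0.057 and 0.15) and under quantile normalization (log2 fold change -0.06, limma adjusted p = 0.68). Hacl1, the lyase of the following step, averaged 110.2 ± 9.42 RPKM in refed and 156 ± 22.2 RPKM in fasted livers and fell by 0.49 ± 0.12 on the log2 scale (limma adjusted p = 0.014). Phyh and Scp2 together made up 50.1% ± 2.44 of the summed level of the 24 enzymes in refed and 41.5% ± 1.67 in fasted livers. That summed level was 4525, 4162 and 4662 RPKM in refed and 5683, 5756 and 6173 RPKM in fasted libraries.

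Ether lipid synthesis, which begins in peroxisomes, did not pass the test in either gene measured. Gnpat, the acyltransferase of the first step, had 13.8, 14.3 and 14.5 RPKM in refed and 14.2, 16.0 and 17.6 RPKM in fasted livers. The groups overlapped, and the log2 fold change was -0.15 ± 0.09 (limma adjusted p = 0.23). It passed when libraries were centred on their medians (limma adjusted p = 0.048), under quantile normalization (0.038) and with TMM factors (0.033). Agps, the synthase that forms the ether bond, was the lowest of the 40 genes at 1.74 ± 0.132 RPKM in refed and 1.52 ± 0.104 RPKM in fasted livers, and did not pass either.

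The 3 listed enzymes that rose were Nudt7 and Nudt19, of coenzyme A metabolism, and Hao1, the 1 gene of glycolate metabolism among them. Nudt7, a hydrolase that cleaves coenzyme A and acyl-CoA in the peroxisome, had 388, 379 and 384 RPKM in refed and 183, 109.9 and 118 RPKM in fasted livers. The refed libraries differed by 1.16% of their mean (coefficient of variation) and each was more than any fasted library. The log2 fold change was 1.52 ± 0.18 (limma adjusted p = 0.0005), the largest rise among the 40 genes. Nudt19, a related coenzyme A hydrolase, had 26.5, 31.3 and 22.4 RPKM in refed and 16.0, 15.5 and 17.1 RPKM in fasted livers. It rose by 0.68 ± 0.12 on the log2 scale (limma adjusted p = 0.0033), again without overlap. Hao1, the liver glycolate oxidase that makes glyoxylate and hydrogen peroxide, had 125, 138 and 127 RPKM in refed and 78.6, 88.5 and 94.8 RPKM in fasted livers. All refed values were above all fasted ones, and the log2 fold change was 0.57 ± 0.09 (limma adjusted p = 0.0024). Pipox, an oxidase of pipecolic acid and sarcosine, had 117, 124 and 112 RPKM in refed and 126, 135 and 128 RPKM in fasted livers. Its refed values all lay below its fasted ones, by a small margin, and it did not pass the test (log2 fold change -0.14 ± 0.08, limma adjusted p = 0.21; 0.04 with TMM factors).

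Nudt7 and Crot, which act on overlapping pools of acyl-CoA, changed places. The ratio of Nudt7 to Crot was 3.89, 5.76 and 3.20 in refed libraries and 0.409, 0.336 and 0.289 in fasted libraries. The ratio of Nudt7 to Nudt19 was 12.1 to 17.1 in refed and 6.88 to 11.5 in fasted libraries. The ratio of the receptors Pex5 to Pex7, by contrast, averaged 1.67 ± 0.0807 in refed and 1.602 ± 0.0464 in fasted livers, with overlapping groups. The 7 pairs were chosen with these values known, so the ratios are a description without a test.

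**Figure D3:**
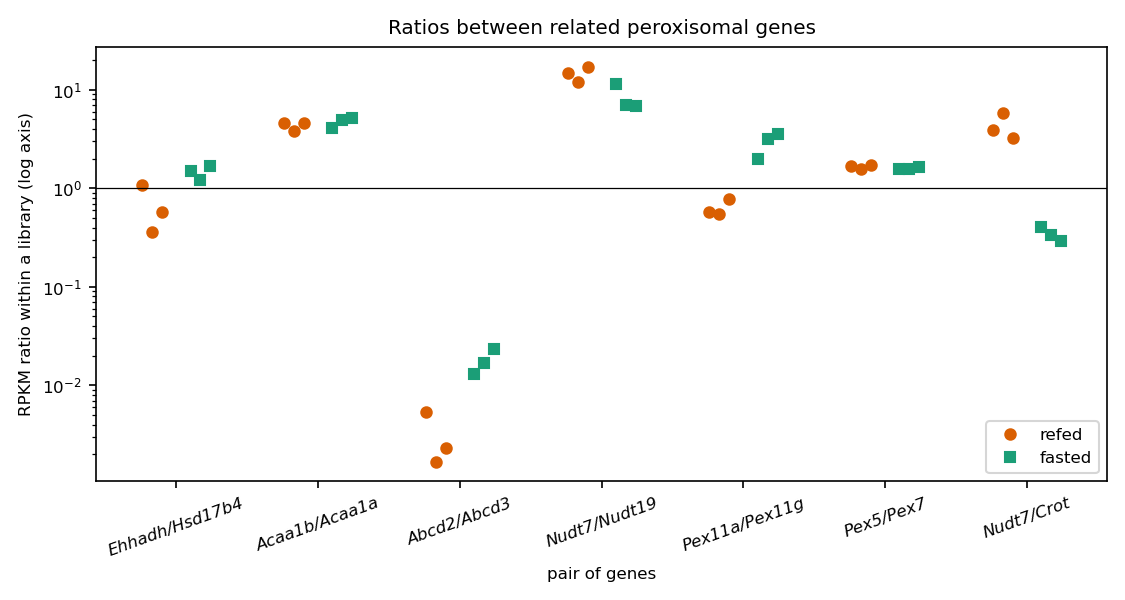
Ratio of the RPKM values of 7 pairs of peroxisomal genes within each library, on a log axis, with the line at a ratio of 1; orange circles are the 3 refed and green squares the 3 fasted libraries. Nudt7/Crot, Ehhadh/Hsd17b4, Abcd2/Abcd3, Nudt7/Nudt19 and Pex11a/Pex11g are apart between the groups, with Nudt7/Crot at 3.20 to 5.76 in refed and 0.289 to 0.409 in fasted libraries, while Acaa1b/Acaa1a and Pex5/Pex7 overlap.

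Pxmp2, a channel-forming protein of the peroxisomal membrane, had 65.9, 76.2 and 59.3 RPKM in refed and 109, 103 and 95.1 RPKM in fasted livers. Pxmp4, a further membrane protein, had 40.4, 44.5 and 51.0 RPKM in refed and 58.5, 74.9 and 69.6 RPKM in fasted livers. For each gene every refed value was below every fasted value. The log2 fold changes were -0.61 ± 0.11 for Pxmp2 (limma adjusted p = 0.0035) and -0.57 ± 0.12 for Pxmp4 (limma adjusted p = 0.0076).

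Read by import signal, 10 of the 20 enzymes with either signal fell, 3 rose and 7 did not pass, with a median log2 fold change of -0.22. Over all genes tested 15.8% fell and 26.4% rose. Of the 16 with the ending at the end of the protein, 7 fell, 3 rose and 6 did not pass. Of the 4 with the signal near the start, Acaa1a, Acaa1b and Phyh fell and Agps did not pass. The 4 membrane proteins without a signal all fell, with a median of -0.59, though Abcd2 among them had a row only through its fasted libraries. Enzymes that share the ending shown above, such as Decr2 and Scp2 with the same last 9 coding bases, thus differed in whether they fell.

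The promoters of 31 of the 40 genes were in the RefSeq table (GRCm38.p6, 250 bases before to 50 after the gene start, 37 windows). The direct repeat with 1 spacer base that PPAR alpha binds with its partner RXR was searched on both strands as AGGTCANAGGTCA, which 0 of the genes' windows held, against 0.0396% of 32851 windows of this length. The looser AGGNCANAGGNCA was held by 0 of them, against 0.381%. The loosest form, NGGNCANAGGNCA, which includes the other motifs, was held by Pex11g and Acox2, against 0.798% of windows. Both matches are shown because neither gene fell, with the motif in capitals on the gene's strand.
Pex11g, chr8:3467704-3467732, minus strand: gcagtactCGGACAAAGGGCAggcagttg
Acox2, chr14:8259056-8259084, minus strand: acaccaccTGGACACAGGACAcacccctc

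A match is of letters alone, and the lack of one says only that these letters were not in the window. At rates this low, 37 windows would seldom hold the stricter forms, so finding none of them tells little. The percentages are of windows and not of genes, and the Acox2 match lies in overlapping windows of that gene.

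A further list of 55 peroxisomal genes gave 51 with a test, of which 21 fell (41.2%, against 15.8% of all genes), 10 rose (19.6%, against 26.4%) and 20 did not pass. Cat, the catalase that removes hydrogen peroxide, averaged 1223 ± 36.3 RPKM in refed and 1524 ± 123 RPKM in fasted livers, a log2 fold change of -0.32 ± 0.10 (limma adjusted p = 0.037). The call of Cat was lost without refed library 5, 7 or 8 or fasted library 3 or 4 (limma adjusted p between 0.061 and 0.13) and under quantile normalization (0.48). The largest falls of the list were in genes that activate or shuttle fatty acyl groups. Crat, a carnitine acyltransferase, averaged 7.68 ± 1.98 RPKM in refed and 38.2 ± 8.17 RPKM in fasted livers (log2 fold change -2.18 ± 0.20, limma adjusted p = 0.00016). Acsl1 and Slc27a2, which activate fatty acids to acyl-CoA, had log2 fold changes of -1.87 ± 0.14 and -1.62 ± 0.11 (limma adjusted p = 6.1e-05 and 4.6e-05). The largest rises were in Pmvk and Idi1, enzymes of the mevalonate pathway of sterol synthesis. Pmvk averaged 106 ± 11.6 RPKM in refed and 15.0 ± 4.12 RPKM in fasted livers (log2 fold change 2.77 ± 0.18, limma adjusted p = 3.6e-05), and Idi1 27.3 ± 6.45 RPKM in refed and 4.73 ± 1.87 RPKM in fasted livers (2.33 ± 0.24, limma adjusted p = 0.00024). The median log2 fold change of the list was -0.13.

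Of 16 nuclear receptors and partners known to act on peroxisomal genes, 7 fell (43.8%, against 15.8% of all genes), 2 rose (12.5%, against 26.4%) and 7 did not pass. Ppara, which encodes PPAR alpha, had 15.5, 10.7 and 11.1 RPKM in refed and 49.5, 57.0 and 57.5 RPKM in fasted livers, a log2 fold change of -2.07 ± 0.14 (limma adjusted p = 4.1e-05). The other falls of at least 0.5 in size were in Creb3l3, a fasting-responsive transcription factor of liver (-1.56 ± 0.20), in the coactivators Ppargc1b (-1.06 ± 0.12) and Ppargc1a (-0.77 ± 0.16), and in Rxra, the main RXR of liver (-0.72 ± 0.13). Ppard, which encodes PPAR delta, ran the other way, with 13.4, 32.9 and 22.6 RPKM in refed and 3.21, 3.49 and 2.95 RPKM in fasted livers. It rose by a log2 fold change of 2.42 ± 0.27 (limma adjusted p = 0.00036).

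**Figure D4:**
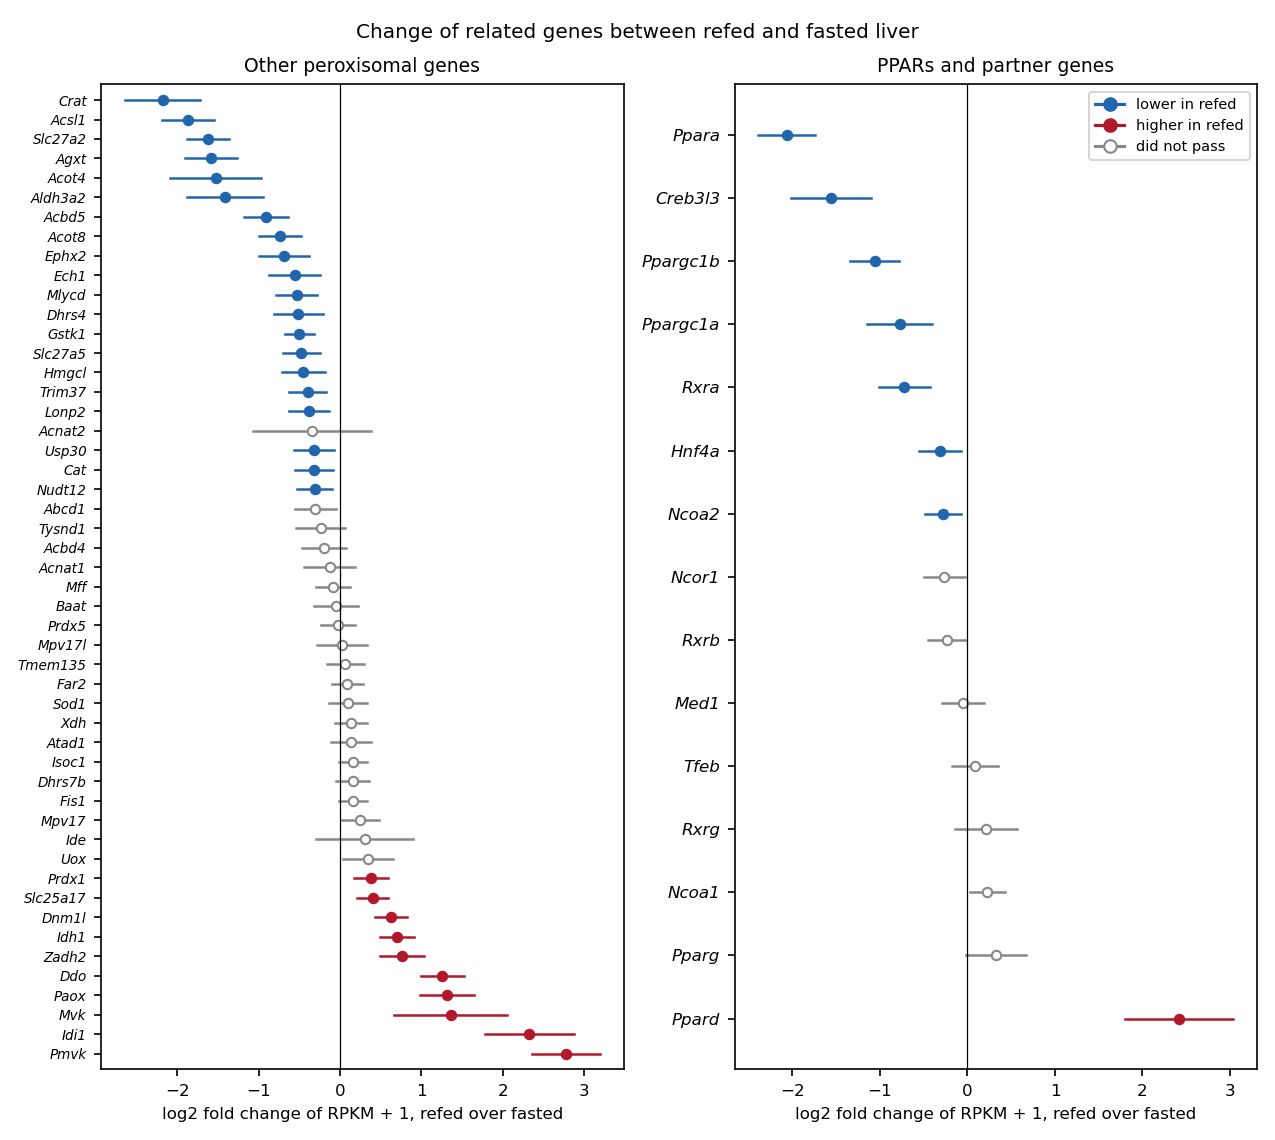
Log2 fold change of RPKM + 1, refed over fasted, with 95% confidence intervals from limma, for other peroxisomal genes (left) and nuclear receptors and partners (right), each sorted from the lowest to the highest. Filled blue points fell, filled red points rose and open grey points did not pass; Crat and Ppara lie lowest at -2.18 and -2.07, Pmvk and Ppard highest at 2.77 and 2.42.

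Within the refed group, library 7 was the lowest of the 3 for 12 of the 19 peroxisomal genes that fell (63.2%), and for 10 of the 14 enzymes among them (71.4%). Over all genes that fell, it was the lowest for 847 of 1715 (49.4%). The part of this library's position in the spread of genes such as Ehhadh was not tested.

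The authors' deposited table of called genes, credited to DESeq in its header and limited to a false discovery rate under 0.05, listed 26 of the named genes, 25 of them measured here. All 25 had the same sign in that table as in the limma fit. It listed 22 of the 24 genes called here, and 3 that were not, among them Gnpat and Pipox, all with negative log2 fold changes. Pex2 and Pex11g, the peroxins that rose, were not among its rows. The authors' log2 fold change lay below the one given here for 24 of the 25 genes, with a median difference of -0.15. By this table's positions, on mm9 as named in the submitters' notes, Pex11a lies at chr7:86880843-86888017 on the minus strand, Ehhadh at chr16:21761360-21787917 on the minus strand and Nudt7 at chr8:116657457-116676212 on the plus strand.

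In GENCODE M21, exons of 14 of the 40 genes overlap exons of another gene. Among those that fell are Acaa1b with Dlec1 and Pex3 with Adat2, each on the opposite strand. Eci2 and Pxmp2 fell too and have an overlap on the opposite strand, Hacl1 on the same strand and Crot on both. Nudt19 and Pex11g, which rose, have an overlap on the opposite strand. The strand setting of the counting is not stated in the labels or headers, and no strand setting would separate overlaps on the same strand. The levels of the 14 genes are therefore less certain than the rest.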

How the data were processed

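Liver messenger RNA of 3 refed and 3 fasted libraries was analysed, grouped by their titles. The authors deposited RPKM values, 1 row per RefSeq transcript with at least 1 RPKM in some library, and a table of called genes with raw counts, log2 fold changes and adjusted p-values, which the file headers credit to DESeq and the authors deposited. No source used here gives the library total behind the RPKM values. The submitters' processing notes name FastQC, STAR 2.6.0c, DESeq2 and mm9 but give them no role. The counts cover only called genes, which were selected on the outcome, and no count test was run on them.

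Transcripts were assigned to genes by accession (14387), description (175) or symbol (23), and 74 were left out. The 10883 genes averaging 0.5 RPKM or more (57 were removed) were compared as log2(RPKM + 1) by limma 3.58.1 in R 4.3.3 with trended variance, two-sided, and Benjamini-Hochberg adjustment, with a threshold of 0.05. The fit was tested on simulated data. Fold changes on this scale understate the change of low genes, and errors are SD for means and SE for log2 fold changes. The members and gene lists were chosen with earlier results of these data known. Values per library are given for peroxisomal genes past the threshold with a log2 fold change of at least 0.5 in size and for the highest gene of each role. Of the other lists, the 5 largest changes with Cat, and receptors and partners past the same size, are named. These have means or log2 fold changes, and library values only for Ppara and Ppard. Other pseudocounts, filters, scalings, transcript sums and leaving out each library were tried (14 alternatives). Coding sequences came from GENCODE M21 and promoters from RefSeq. Some genes enter the counts, medians and sums but are not reported by name or drawn here.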

Additional observations from a re-analysis of the deposited data

Results flagged for a closer look

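Far1, the reductase that makes fatty alcohols for ether lipids, was listed among the enzymes but had no row of RPKM values, so it entered no comparison above. In the authors' deposited table it had 114, 121 and 121 reads in refed libraries 5, 7 and 8 and 55, 44 and 78 reads in fasted libraries 1, 3 and 4. All refed values were above all fasted ones, with means of 119 ± 4.04 reads in refed and 59.0 ± 17.3 reads in fasted libraries (SD, n = 3 each, raw reads not scaled for depth). The authors' log2 fold change for Far1 in that table was 0.81 at a false discovery rate of 0.041. It stood out because the signal lies in data that the comparisons did not use.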

How the results depend on the processing

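Of the 24 peroxisomal genes called, 19 kept their call in each of the 14 alternatives, 15 lower and 4 higher, and none of the 40 genes reversed a call. Among the calls lost in some alternatives were those of Amacr, Hsd17b4, Pex11g and Phyh, and 6 genes that did not pass gained one in some, among them Gnpat, Pipox, Pex10 and Pex26. The number of peroxins that rose was 2, and it was 1 with each library centred on its median, 1 under quantile normalization and 1 with TMM factors, and ran from 1 to 4 when 1 library was left out (1 without refed library 5, 4 without refed library 8). The cause was not tested. The numbers of enzymes called, of peroxins that fell and of the other lists stayed within 1.5 times in every alternative. Scaling moved the split of calls over all genes: 62.6% of them were higher in the fit as reported, 49.2% with median centring, 48.6% under quantile normalization and 48.1% with TMM factors, while the median log2 fold change of all genes was 0.10 as reported and 0.01 under each of these scalings. No paired analysis was possible because the refed and fasted groups share no replicate number. With 3 libraries a group and RPKM in place of counts, depth is unknown for genes outside those the authors called. Precision did not follow level alone. The SE of the log2 fold change was 0.38 for Ehhadh, 0.22 for Abcd2 and 0.096 for Agps. The coefficient of variation in refed libraries was 57.0% for Ehhadh, 71.6% for Abcd2 and 7.59% for Agps.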
